A study of Mus musculus with 8 samples.

Results

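The genes described here are 45 genes of DNA replication and of the repair of replicating DNA. They comprise the replicative helicase, its loading factors, the replicative polymerases with primase, the sliding clamp and its loader, the single-strand binding protein RPA, flap and ligation enzymes, topoisomerases, enzymes of deoxynucleotide supply, fork proteins, and the repair genes Brca1, Brca2 and Msh6. The members were given as a list of symbols, and every non-control probe carrying one of these names was taken. All 45 were found, with 55 probes, among 36163 gene names on the arrays. Each of them also belonged to the 18907 gene names with a mean log2 signal of at least 7.5 and a value on all 8 arrays, which serve as the comparison throughout (genes tested). All member probes but 1 were well above background on all 8 arrays, and no member spot was saturated.

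The study asked which mRNAs Argonaute (Ago) proteins bind as mouse embryonic stem (ES) cells become neural. E14Tg2A cells, an established ES cell line of strain 129/Ola, were sampled undifferentiated in serum with LIF at 0 days in vitro (DIV), as floating epiblast-like aggregates (ELA) at 2 DIV, as adherent neural progenitors (NPC) at 6 DIV, and finally, at 10 DIV, as neural precursors (NPC/Neu), the last 3 in chemically defined medium without serum. At each stage 1 one-color array received total RNA and 1 received RNA pulled down from cytosol by an antibody against all Ago proteins (Ago–RNA). RNA of 3 independent experiments was pooled on each array, so that the 8 arrays hold no replicate and no p-value can be given. Ago enrichment, E, is the log2 signal of Ago–RNA minus that of total RNA, so that 0 means equal normalized signal on both arrays and 1 a 2-fold excess on the Ago–RNA array.

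Replication origins are licensed in G1 phase when ORC, Cdc6 and Cdt1 load the ring-shaped Mcm2–7 complex onto DNA, and the loaded ring becomes the active helicase together with Cdc45 and GINS. Polymerase alpha with primase starts each strand, polymerases epsilon and delta extend it on the clamp Pcna, and Fen1 and Lig1 join the lagging-strand fragments. ES cells divide fast with a short G1 phase and express these genes strongly, and many of them are transcribed under E2F factors. Ago proteins carry miRNAs, which guide them to mRNAs whose translation and stability they reduce, and the miR-290 cluster is abundant in ES cells and the miR-302 cluster in epiblast-like cells.

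The 8 arrays shared 1 slide. Spot brightness (upper quartile of mean signal) was 3039 for ES Ago–RNA and between 1060 and 1774 for the other arrays, and 53.4% to 61.2% of spots per array were well above background. The only error that the arrays give is the spread of 399 probes printed 10 times per array. It corresponds to a spot SD of 0.21 to 0.25 for E, 0.31 to 0.33 for a change of E between stages and 0.22 to 0.23 for a change of total RNA, and it leaves out all variation between cultures. Most stage markers followed the labels. In total RNA, Zfp42 went from 15.97 in ES cells to 12.36 in ELA, Fgf5 was highest in ELA at 14.78, Hes5 reached 16.28 in NPC, and Dcx went from 7.94 in NPC to 10.88 in NPC/Neu. All 6 ES marker genes were higher in NPC/Neu than in NPC, most of all Esrrb and Zfp42, at 11.55 after 9.59 and 9.76 after 8.71. Klf4, at 10.90 in NPC/Neu, was above its 9.85 in ELA. The epiblast gene Otx2 was nearly flat, at 15.53, 16.06, 15.91 and 15.97 from ES cells to NPC/Neu. The neuron gene Stmn2 was higher in ES cells (14.44) than in ELA (13.69) or NPC (13.85) and reached 15.73 in NPC/Neu. Of 10 marker genes of other lineages, the endoderm genes Afp and Gata6, the mesoderm gene Mixl1 and the glial genes Gfap and S100b stayed under 7 at every stage. The mesoderm genes T and Kdr went from 7.19 and 10.51 in ES cells to 9.73 and 12.08 in NPC, the glial gene Olig2 from 6.48 in ES cells to 9.31 in NPC/Neu, and the endoderm gene Sox17 reached 8.08 in NPC, while Gata4 was at most 7.66. The part of such cells in the values of the members was not tested. In total RNA of such bulk samples, fewer dividing cells and less RNA per cell cannot be told apart.

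The sequences behind the 2 extremes of the list are shown because each of these genes was read by a single probe within coding exons. The probe of Top2a, which had the highest E in ES cells, lies at chr11:98855522-98855581 on the minus strand of mm9, and that of Gins2, which had the lowest, at chr8:123112627-123112686, also on the minus strand.
Top2a: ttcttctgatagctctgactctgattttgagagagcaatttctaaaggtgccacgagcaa
Gins2: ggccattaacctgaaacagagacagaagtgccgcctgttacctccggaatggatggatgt

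Of the 55 member probes, 37 lay in untranslated exons, 10 in coding exons, 7 across both, and 1 in no exon of its gene. Thus most members were read near the 3′ end of the mRNA, and 36 of the 45 genes by 1 probe only.

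In ES cells the members were enriched with Ago as a group, although far from uniformly. Their median E was 0.72, against 0.03 for all genes tested, and single values ran from −1.52 for Gins2 to 2.15 for Top2a. E was at least 1 in 20 of the 45 members, or 44.4%, and in 12.0% of all genes tested. In ELA the median was 0.07 and the SD over members was 0.35, after 1.03 in ES cells, and over all genes tested it was 0.560 after 0.906. No member reached 1 in ELA, where 3.95% of all genes did. In NPC the median was 0.22 and 1 member, Msh6, was above 1, against 6.16% of all genes. In NPC/Neu the median was 0.76, and 18 members (40%) reached 1 against 12.9% of all genes, with an SD of 0.92 over members and 0.991 over all genes. Thus the members spread out widely at the first and the last stage and were close to equal signal on both arrays in ELA, and 33 of the 45 had a lower E in ELA than in both ES and NPC/Neu cells, as had 38.5% of all genes tested.

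**Figure D1:**
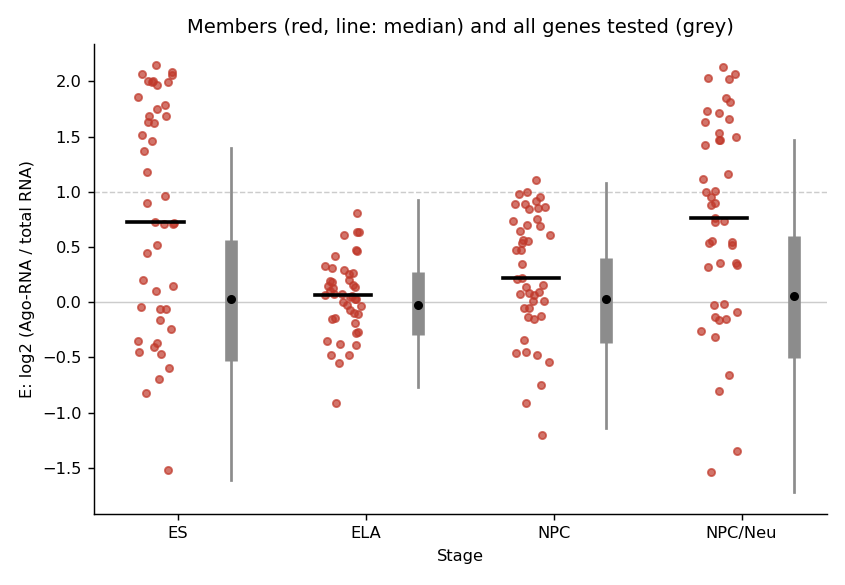
Ago enrichment E (y axis, log2 of Ago–RNA over total RNA) at the 4 stages (x axis). Each red point is 1 of the 45 members and the black line their median (0.72, 0.07, 0.22 and 0.76). The grey bar gives the middle 50% of the 18907 genes tested, the thin line 5% to 95%, and the dot their median. The members lie widely spread in ES and NPC/Neu cells and all under the dashed line at 1 in ELA.

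The 6 subunits of the Mcm2–7 ring behaved alike. For Mcm4 the log2 Ago–RNA signal was 18.13 at the ES stage, 16.30 at ELA, 16.91 at NPC and 17.68 at NPC/Neu, beside total RNA signals of 16.07, 16.14, 15.92 and 15.61. Its E was therefore 2.06, 0.15, 0.99 and 2.07, and series of 4 values without stage names follow the same order. The signal of Mcm4 in total RNA moved little from ES cells to ELA, so that the difference in E came from the Ago–RNA array. Mcm3 had an E of 2.06, 0.20, 0.74 and 1.85 over the stages, and its 2 probes differed by only 0.03 in ES cells. For Mcm7 the values were 1.96, 0.13, 0.70 and 1.63, for Mcm2 1.86, 0.18, 0.69 and 1.71, and for Mcm6 1.79, 0.14, 0.75 and 1.81. All 5 fell between ES cells and ELA by more than 1.6 and were higher again at each later stage. Mcm5 was the exception in NPC, with E of 1.51, 0.33, 0.01 and 1.01.

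GINS, which binds the ring in the active helicase, did not share this profile. Gins2 was the least enriched member at every stage, with E of −1.52, −0.91, −1.21 and −1.54, while its total RNA signal was 13.44, 13.54, 13.45 and 12.07. Gins1 had E of −0.35, 0.08, −0.46 and −0.03, where the value in ES cells turned positive with separate normalization of the Ago–RNA and total RNA arrays. Subunits that act in the same complex thus stood more than 3 log2 units apart on the same array pair. Their probes differed in position, however. The probe of Gins2 lies 3408 bases from the end of its longest matched transcript of 3900 bases, and those of Mcm4, Mcm7 and Gins1 lie 382, 114 and 89 bases from that end. The part of probe position in the difference was not tested.

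Of the Mcm proteins outside the ring, Mcm10, which helps to start unwinding, had E of 1.63, 0.07, 0.15 and 1.00. Mcm9, which acts with Mcm8 in recombination repair, had low total RNA signals, between 8.44 and 8.81, and E of 1.46, 0.26, 0.64 and 0.95. Mcm8, its partner, had E of −0.06, −0.28, −0.45 and 0.32. Of these 3 genes, 2 therefore resembled the ring in ES cells and Mcm8 did not.

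The licensing factors differed from each other. Cdt1, which brings the ring to origins, had E of 1.37, 0.05, 0.61 and 0.54, so that it did not regain its ES value. Cdc6, the ATPase that acts with Cdt1, had 0.90, 0.13, 0.89 and 1.73 and was highest at the last stage. Gmnn, which inhibits Cdt1, was read by 2 probes that disagreed. The probe in an exon had E of −0.72 in ES cells, −0.95 in NPC and −1.01 in NPC/Neu and no value in ELA, where its spot was irregular on the total RNA array. A dim probe on the opposite strand, outside the annotated exons, had −0.47, 0.47, 0.64 and 0.49. The gene means (−0.59, −0.15 and −0.26 outside ELA) average both, and the value in ELA, 0.47, and the changes to and from ELA (0.93 and 0.17) rest on the dim probe alone.

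Among polymerases, enrichment lay with the large catalytic subunits. Pold1, the catalytic subunit of polymerase delta, had E of 2.01, 0.03, 0.53 and 1.47, while its small partner Pold2 had −0.16, −0.11, 0.09 and −0.09. Pola1, the catalytic subunit of polymerase alpha, had 1.69, 0.64, 0.86 and 2.03, and its partner Pola2 had 0.71, −0.19, −0.13 and 0.54. Prim1 and Prim2, the primase subunits, had −0.25 and −0.05 in ES cells, within or near the spot SD of 0.21. Both primase genes differed later, since Prim2 reached 0.90 in NPC/Neu and Prim1 stood at −0.66. Pole2, the second subunit of polymerase epsilon, ranged only from −0.05 to 0.35.

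Pole, the catalytic subunit of polymerase epsilon, had a mean E of 0.71, 0.10, 0.21 and 0.76, which hides 3 probes that disagreed. The probe near the 3′ end of the full transcript of 7163 bases had E of 2.14, 0.30, 0.73 and 1.56, as the other catalytic subunits did. A probe that matched only a short transcript of 747 bases from the same gene had −1.17, −0.45, −0.31 and 0.16. The remaining probe lies in a coding exon at chr5:110741964-110742023 on the plus strand of mm9, 3523 bases from the end of the long transcript, and was well above background on 5 of 8 arrays. Its values were 1.15, 0.45, 0.22 and 0.57, and its sequence is given because it separates the long transcript from the short one.
Pole: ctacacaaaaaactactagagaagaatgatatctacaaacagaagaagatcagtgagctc

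Both probes of the long transcript were thus higher in ES cells than in ELA and the probe of the short one was lower. The range over the probes of Pole in ES cells was 3.31, and the next largest among the 9 members with several probes was 0.87, for Timeless.

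**Figure D2:**
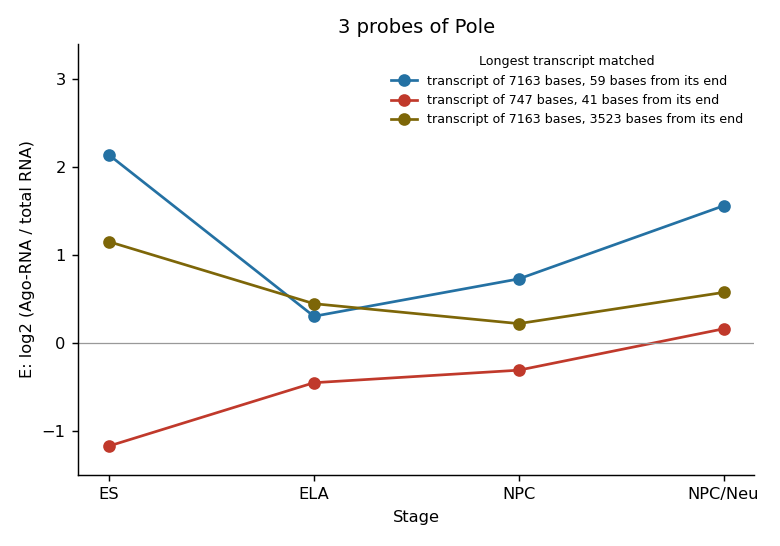
Ago enrichment E (y axis, log2) of the 3 probes of Pole at the 4 stages (x axis). Each line is 1 probe, named by the length of the longest transcript it matched and its distance from that transcript's end. The probe of the short transcript (red) starts at −1.17 in ES cells, and the probes of the long transcript start at 2.14 and 1.15.

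The clamp and its loader were mostly not enriched. Pcna, the clamp, had a total RNA signal of 17.04 in ES cells and E of 0.71, −0.04, 0.09 and 0.52, but its E in ES cells was −0.46 when the arrays were scaled to their 75th percentile instead. Rfc1, the large loader subunit, had 0.52, 0.00, 0.14 and 0.33. The small subunits Rfc2 and Rfc4 were below 0 at all stages (Rfc4 not with separate normalization, nor in NPC/Neu with scaling to the 75th percentile), at −0.70 and −0.47 in ES cells and −0.81 and −0.16 in NPC/Neu. Rfc5 went from −0.41 in ES cells to 0.57 in NPC and back to −0.31. Rfc3 had −0.06, 0.64, 0.95 and 0.36, and so was higher at both middle stages than in ES cells.

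RPA coats single-stranded DNA. Its large subunit Rpa1 had E of 0.44, −0.27, −0.13 and 0.73, the middle subunit Rpa2 −0.37, 0.27, 0.07 and −0.01, and the smallest, Rpa3, −0.82, −0.55, −0.75 and −1.35. Their order in ES and NPC/Neu cells was that of their sizes. The sign of Rpa1 in ES cells turned with scaling to the 75th percentile, and that of Rpa2 with separate normalization of both kinds of array.

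Lig1, the ligase of the lagging strand, fell most of all members from ES cells to ELA, by 2.10. Its Ago–RNA signal was 17.47, 15.64, 16.14 and 16.86 and its total RNA signal 15.47, 15.74, 15.67 and 15.33, which gave E of 2.00, −0.10, 0.48 and 1.53. Fen1, the flap nuclease, had 0.96, −0.14, 0.22 and 1.16. Exo1, a nuclease of mismatch repair, had 0.72, 0.20, 0.35 and 0.73.

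Top2a, the topoisomerase that untangles replicated DNA, had Ago–RNA signals of 16.44, 14.49, 15.35 and 15.43 beside total RNA signals of 14.30, 14.20, 14.50 and 13.78, and E of 2.15, 0.30, 0.85 and 1.65. Top1, which relaxes supercoils in dividing and resting cells, had 0.20, −0.38, −0.48 and −0.15. Both subunits of ribonucleotide reductase were enriched in ES and NPC/Neu cells. Rrm1 had 2.09, 0.61, 0.98 and 2.13, and Rrm2 1.63, 0.42, 0.89 and 1.49. The thymidylate genes Tk1 (0.10, 0.07, 0.07 and 0.55) and Tyms (−0.45, −0.39, −0.34 and −0.13) were not.

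The fork proteins Timeless, a part of the fork protection complex, and Wdhd1, which ties polymerase alpha to the helicase, had E of 2.00 and 1.18 in ES cells, 0.04 and 0.03 in ELA, 0.56 and 0.48 in NPC and 1.12 and 1.42 in NPC/Neu. Of the repair genes, Msh6, the mismatch sensor, had 1.99, 0.31, 1.10 and 2.03. Brca1 and Brca2 act in recombination repair. Brca1 had 1.69, 0.46, 0.92 and 1.47, from total RNA signals as low as 7.59 in NPC/Neu cells. Brca2 had 1.75, 0.81, 0.84 and 0.88 and stayed at its ELA level.

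**Figure D3:**
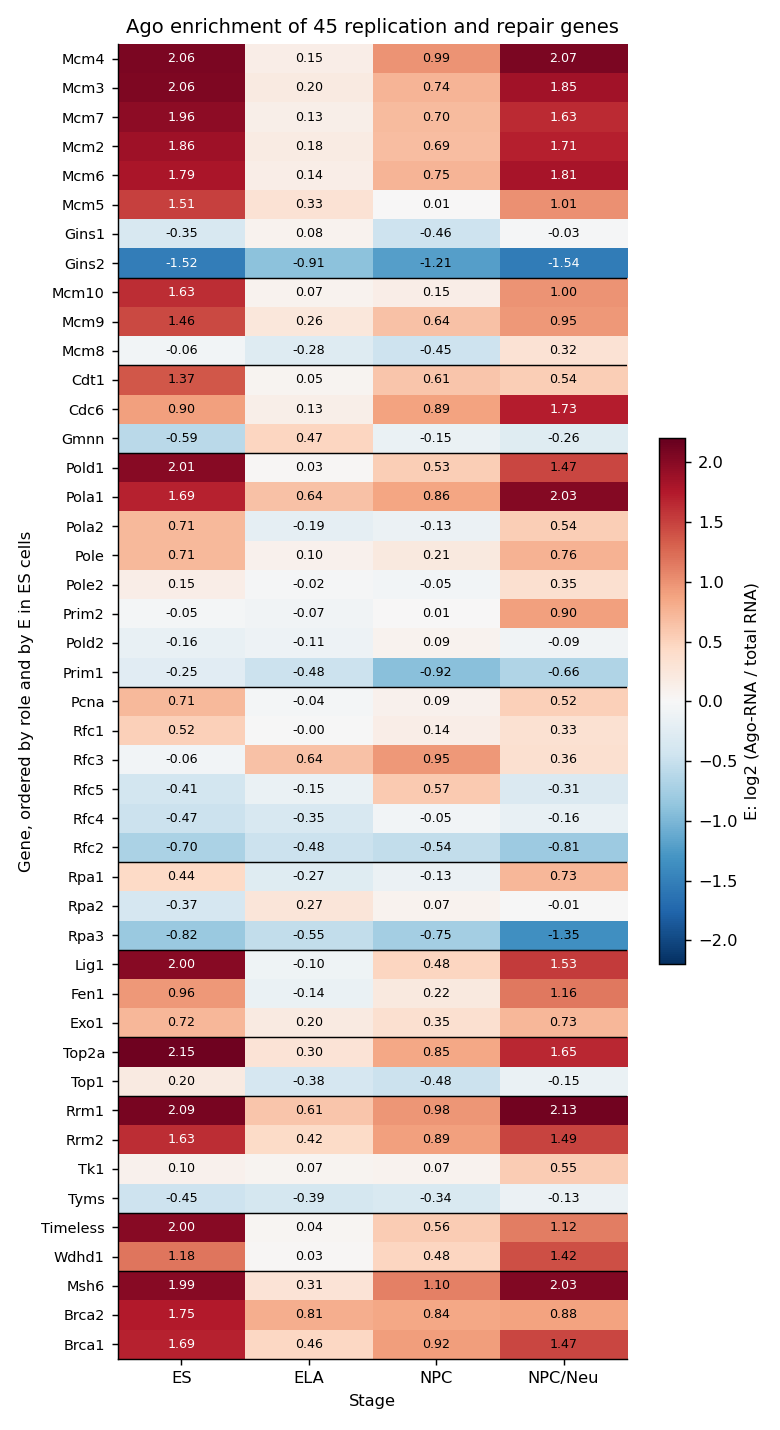
Ago enrichment E (color and printed value, log2) of the 45 members (rows) at the 4 stages (columns). Rows are grouped by role between black lines, from the helicase through further Mcm genes, licensing, polymerases, clamp and loader, RPA, flap and ligation, topoisomerases, nucleotide supply and fork proteins to repair, and are ordered by E in ES cells within a group. Most rows that are red in ES cells fade in ELA and return in NPC/Neu, but Cdt1 and Brca2 do not return. Prim1, Rfc2, Rfc4, Gins2, Rpa3 and Tyms are below 0 at all 4 stages.

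From ES cells to ELA the median change of E over the members was −0.77, against −0.01 over all genes tested. E was lower in ELA by at least 1 in 20 members (44.4%), and 6.95% of all genes tested fell that far. No member rose by 1, whereas 8.52% of all genes did. Total RNA moved far less. No member changed in total RNA by 1 in either direction at this step, where 4.39% of all genes were lower and 4.53% higher by that much, and 31 of the 45 changed by less than the spot SD, as did 45.5% of all genes. A small downward shift was still shared, since total RNA was lower in 34 of the 45 members and in 8916 of the 18907 genes tested. The median member changed by −0.14 in total RNA, against 0.03 over all genes, and by −0.88 in Ago–RNA, against 0.05.

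By the thresholds of the study (Ago–RNA signal above 7.83, E of at least 2 before and at most 0.5 after, and a change of at least 1.5 for the same probe), 6 members (13.3%) were released from Ago at this step. They were Mcm3, Mcm4, Pold1, Pole, Timeless and Top2a, where Pole was called through the 3′ probe of its long transcript. Timeless was called through 1 of its probes, with E of 2.44 in ES cells, while its other probe had 1.57. Of all genes tested, 0.524% were released. Members with E from 1.75 to 2.00 in ES cells (Brca2, Mcm2, Mcm6, Mcm7, Msh6 and Lig1) lay just under the limit on E in ES cells, and 5 of them fell by more than 1.6. Rrm1, at 2.09 in ES cells, missed the limit on E in ELA with 0.61. None of the members was released at the later steps or loaded (the reverse change) at any step. Both calls were rare, with 0.132% and 0.037% of all genes tested released at the later steps and 0.206%, 0.037% and 0.074% loaded at the 3 steps, so that 0 of 45 members says nothing about them.

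The size of these values depended on how the arrays were scaled. With the processed signal of the scanner software scaled to the 75th percentile, which does not force the arrays to 1 distribution, E of Mcm2–7 in ES cells lay between 0.38 and 1.18 in place of 1.51 to 2.06, 12 members reached 1, and no member was released. E was then lower in ELA by at least 1 in 8 members in place of 20, with a median change of −0.35. The change of E to ELA was −0.30 to −1.13 for Mcm2–7 in place of −1.19 to −1.91. The median over all genes moved by this scaling as well, to −0.25 for E in ES cells and 0.14 for the change, and 34 members lay below the median change in either setting. The Mcm2–7 values in NPC/Neu, 1.18 to 1.74, stayed close to those above. The ES Ago–RNA array is the brightest of the 8, and its part in this difference was not tested.

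The study itself placed 13 of the 45 members (Mcm2–7, Mcm9, Mcm10, Lig1, Pold1, Pole, Rrm2 and Msh6) under replication and repair terms for released mRNAs chosen on these same arrays, so their direction is no independent evidence. Their median change of E to ELA was −1.68, and 12 of them fell by at least 1. The other 32 members had a median of −0.37, ranged from −1.96 for Timeless to 0.93 for Gmnn (on its dim probe alone), and included 8 that fell by at least 1.

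From ELA to NPC, E moved by at least 1 in no member, with 1.8% of all genes higher and 3.35% lower by that much. The median change was 0.19 and the range −0.53 for Gins1 to 0.84 for Mcm4, and of the 20 members with E of at least 1 in ES cells, 19 were higher in NPC than in ELA, with Mcm5 the exception. Of all genes tested with such an E in ES cells, 71.1% were higher in NPC than in ELA. In total RNA, 10.7% of all genes tested were lower and 11.9% higher by at least 1, but no member was in either class. Their total RNA changes ran from −0.75 for Rfc5 to 0.71 for Rrm1.

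From NPC to NPC/Neu the members lost total RNA, and E rose in 19 of the 20 with E of at least 1 in ES cells. The share of all genes tested with such an E that rose at this step was not counted. Total RNA was lower in 44 of 45 members and in 55.0% of all genes tested, by more than the spot SD in 41 members and 35.8% of all genes, with a median of −0.64 against −0.05 over all genes. Top1 was the exception, at 0.08. The loss reached 1 in 4 members (Gins2, Mcm10, Pole2 and Prim2), or 8.89%, where 4.69% of all genes were lower by at least 1, and no member was higher by 1 against 5.77% of all genes. Their changes were −1.39, −1.18, −1.09 and −1.07. The 4 members became 7 with the quantile-normalized processed signal of the scanner software and 11 with its scaling to the 75th percentile. Over the whole course, Mcm10 went from 15.01 in ES cells to 12.88 in NPC/Neu, the largest loss among the members, while only Top1, Mcm9 and Rrm1 ended above their ES level.

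Over the same step E rose by at least 1 in 7 members, namely Lig1, Mcm2, Mcm3, Mcm4, Mcm6, Pola1 and Rrm1 (15.6%), against 2.16% of all genes. The median change of E was 0.55 over the members and 0.03 over all genes tested. The median change of Ago–RNA was −0.14 over the members, with 25 lower and 20 higher, and −0.07 over all genes tested. Over the members as a group, the rise of E thus did not come with a rise of the median Ago–RNA signal. In each of the 7 genes named, however, Ago–RNA was higher in NPC/Neu than in NPC, as for Mcm4 (17.68 after 16.91). In the 20 members with E of at least 1 in ES cells, median Ago–RNA relative to ES went from −1.27 to −1.15. In 24 others, without Gmnn, it went from −0.32 to −0.64. No member fell by 1, against 4.41% of all genes, and Rfc5 came closest at −0.88. For Mcm7, Ago–RNA rose from 17.12 to 17.93 while total RNA went from 16.42 to 16.29. For Pola1 the Ago–RNA signal went from 14.22 to 14.41 and the total RNA signal from 13.36 to 12.38, so that there the total RNA moved more. Both routes thus occurred among genes whose E rose.

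**Figure D4:**
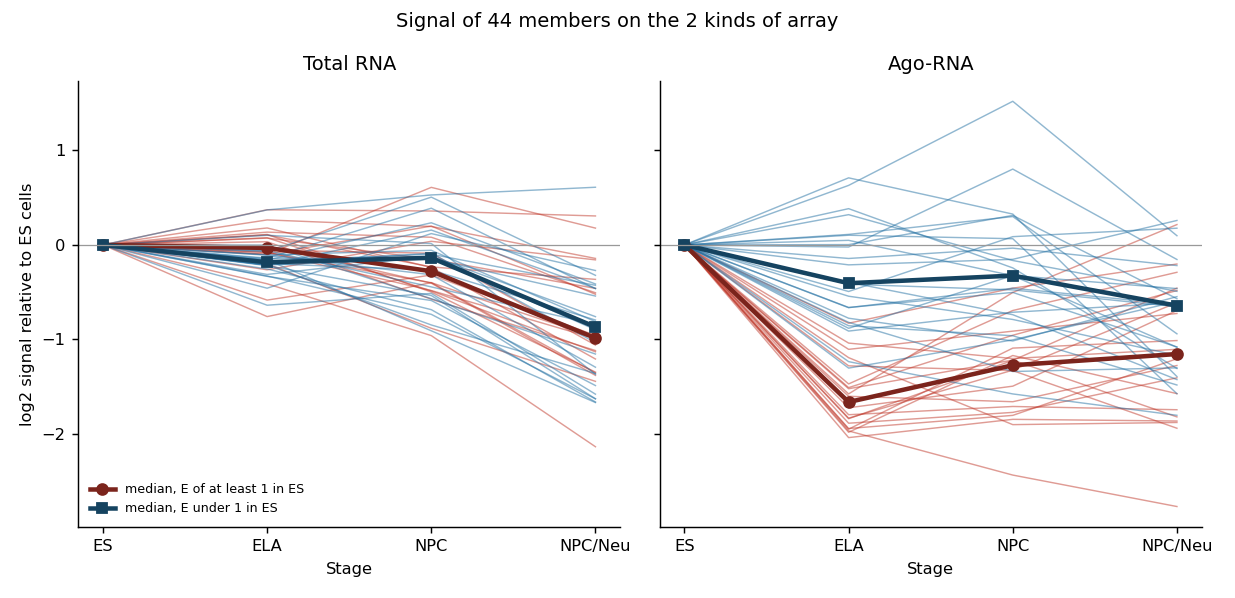
Log2 signal relative to ES cells (y axis) of 44 members at the 4 stages (x axis), on total RNA arrays (left) and Ago–RNA arrays (right). Gmnn is left out because of its irregular spot. Thin lines are genes, red with E of at least 1 in ES cells (20 genes) and blue with less (24 genes), and thick lines their medians. In ELA the red median is −0.03 in total RNA and −1.66 in Ago–RNA, the blue medians are −0.18 and −0.41, and by NPC/Neu the total RNA medians are −0.99 and −0.87. The red and blue classes were chosen on E in ES cells, so their separation on the right follows in part from that choice.

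The order of the members was alike at the first and the last stage, although these come from 4 different arrays. Over the 45 members, E in ES cells and E in NPC/Neu had a Pearson correlation of 0.914 and a Spearman correlation of 0.916. Over all genes tested these were 0.783 and 0.773. The points are genes read by the same probes on arrays of the same slide, so this is a description. In all, 15 members had E of at least 1 in both ES and NPC/Neu cells and under 1 in ELA and NPC, namely Mcm2–7, Lig1, Pold1, Pola1, Top2a, Rrm1, Rrm2, Wdhd1, Timeless and Brca1, a pattern of 3.86% of all genes tested. At the other end, Prim1, Rfc2, Rfc4, Gins2, Rpa3 and Tyms were below 0 at all 4 stages, of which Rfc2, Gins2 and Rpa3 stayed so both with scaling to the 75th percentile and with separate normalization. Of all genes tested, 27.5% were below 0 at all stages.

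Enriched members tended to have long coding sequences. All 45 members had a GENCODE transcript of the array's genome build (mm9), and coding length ran from 366 bases for Rpa3 to 9990 for Brca2. Coding length and E in ES cells had a Spearman correlation of 0.742 over the members. This was not particular to replication genes, since it was 0.657 over 13261 genes tested with a transcript. For the length of the whole transcript the values were 0.584 and 0.614. With the change of E from ES cells to ELA the values were −0.705 and −0.614. In contrast, the length of the 3′ UTR, where most miRNA sites lie, had a correlation of 0.049 with E in ES cells over the members and 0.265 over all genes. This 3′ UTR was that of the transcript with the longest coding sequence, which was not always the longest transcript. For Fen1 it had 1233 bases and no 3′ UTR, beside a longest transcript of 2373 bases, and for Cdc6 2559 beside 4802.

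Divided by coding length, the 16 members under 1500 bases had a median E of −0.36 in ES cells, the 12 of 1500 to 2499 bases 1.13, and the 17 of 2500 or more 1.69. All genes tested in these classes had medians of −0.17, 0.44 and 0.94. E fell to ELA by at least 1 in 12.5%, 50% and 70.6% of the members and in 1.5%, 9.74% and 28.3% of all genes in these classes. The members were also bright, and among genes at least as bright in total RNA as the lower quartile of the members, the same shares were 2.53%, 24.2% and 57%. The share among the members was above that among bright genes in each class, but on few members (2 of 16, 6 of 12 and 12 of 17). Brightness was not matched, with median total RNA signals in ES cells of 14.10, 15.23 and 14.30 for members and 14.06, 13.76 and 13.65 for bright genes. Of the 20 members that fell by at least 1, 12 are among those the study placed under terms for mRNAs released on these arrays. The excess is therefore no independent evidence. Rrm2, with a coding length of 1173 bases, was the only member under 1500 bases with E of at least 1 in ES cells. Of the 17 members of 2500 bases or more, 13 had E of at least 1 in ES cells. The exceptions were Mcm8, Rfc1, Exo1 and Pole, with 2502, 3438, 2514 and 6852 bases and E of −0.06, 0.52, 0.72 and 0.71. The value of Pole is the mean of probes that disagreed. In the middle class, Top1, with 2304 bases, had 0.20.

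**Figure D5:**
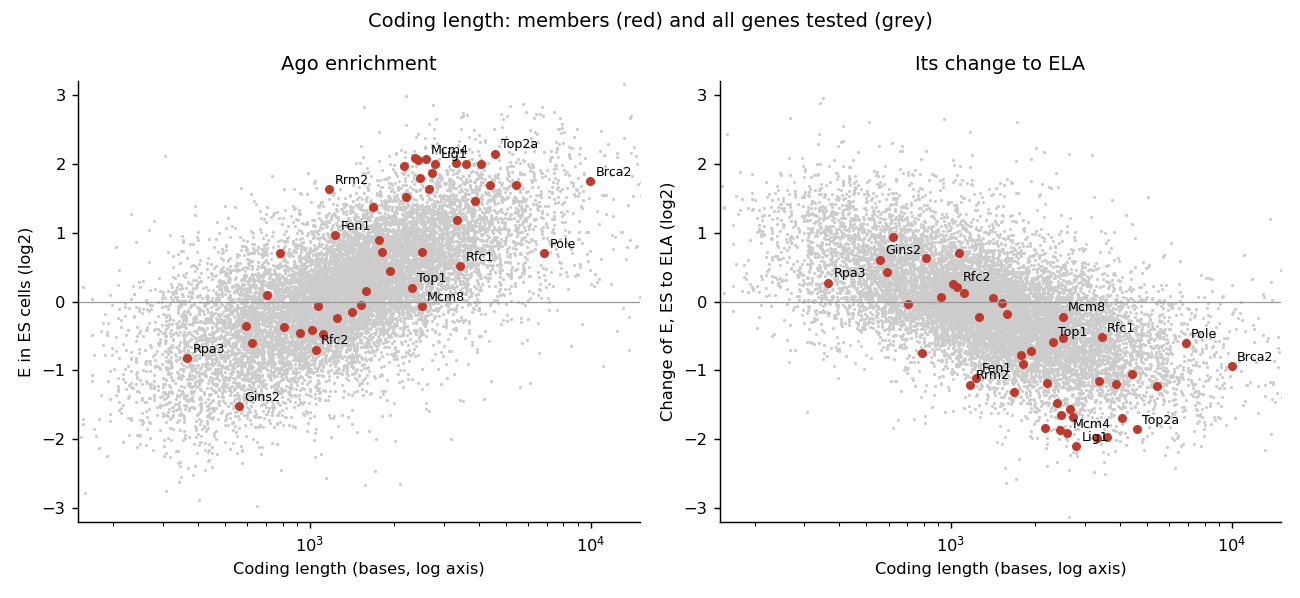
E in ES cells (left, y axis, log2) and its change from ES cells to ELA (right, y axis, log2) against coding length in bases (x axis, log scale). Red points are the 45 members and grey points genes tested with a transcript. The members rise with length on the left (Spearman 0.742) and fall with length on the right (−0.705), inside the cloud of all genes, which slopes the same way.

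Letters of E2F sites, a feature independent of the arrays, were more common in promoters of the members than in all promoters, although most members lacked them. RefSeq promoter sequences (GRCm38.p6, 250 bases before to 50 after the start) were found for 37 members, and both strands were searched for TTTGGCGC, TTTCCCGC, TTTGGCGG and TTTCCCGG. At least 1 of these words was present in 16 members, or 43.2%, and in 3.79% of 27025 genes with a promoter. With 1 promoter per gene only, the shares were 42.4% of 33 members and 3.31% of all. A match is a description of letters and not of binding, and the base composition of the promoters was not taken into account. Windows of 30 bases are shown for 4 helicase subunits and for the licensing factors Cdc6 and Cdt1, where the word is in capitals on the strand of the gene.
Mcm6, chr1:128359734-128359763, minus strand: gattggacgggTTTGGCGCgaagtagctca
Mcm6, chr1:128359797-128359826, minus strand: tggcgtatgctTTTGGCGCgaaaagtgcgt
Mcm5, chr8:75109349-75109378, plus strand: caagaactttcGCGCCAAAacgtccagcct
Mcm3, chr1:20820263-20820292, minus strand: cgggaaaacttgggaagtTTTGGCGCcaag
Mcm7, chr5:138172030-138172059, minus strand: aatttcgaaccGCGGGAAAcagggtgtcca
Cdc6, chr11:98908002-98908031, plus strand: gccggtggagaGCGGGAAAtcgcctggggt
Cdt1, chr8:122568035-122568064, plus strand: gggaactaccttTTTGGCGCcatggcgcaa

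The 16 members with these letters had a median total RNA change of −0.73 from NPC to NPC/Neu and the 21 members with a promoter but without them −0.64. Their median E in ES cells was 1.60 and 0.71.

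Counted per gene, without regard to the length of the 3′ UTR, matches to the seed of the miR-290 and miR-302 families were no more common among the members than elsewhere. The seed, bases 2 to 8, is in capitals in the mature sequences from RefSeq (GRCm38.p6).
mmu-miR-294-3p: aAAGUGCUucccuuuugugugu
mmu-miR-291a-3p: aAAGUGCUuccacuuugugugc
mmu-miR-302b-3p: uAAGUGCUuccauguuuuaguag
mmu-miR-302d-3p: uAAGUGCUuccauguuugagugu

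The word AGCACTT, which pairs with the seed, and the words GCACTTT or, for the miR-302 family, GCACTTA, which pair with bases 1 to 7, were searched on the mRNA strand in the 3′ UTR of 44 members. The 3′ UTR was again that of the transcript with the longest coding sequence, so that matches in other transcripts of a gene were not counted. A match was found in 9 of them, or 20.5%, against 22.4% of 12777 genes tested, and the members had shorter 3′ UTRs, with a median of 464 bases against 879. The 9 were Mcm3, Mcm7, Pola1, Cdc6, Cdt1, Rpa2, Rrm2, Tyms and Exo1. Their median E in ES cells was 1.37 and that of the 35 others 0.71, with values from −0.45 to 2.06 and from −1.52 to 2.15, so that the classes overlapped over most of their range. Over all genes tested the medians were 0.38 with a match and 0.11 without. The median coding length was 1770 bases in the 9 members and 2304 in the 35 others, and the part of the matches in E was not tested. The matches in the helicase genes, in capitals, were as follows.
Mcm3: cccacccccagGCACTTTagtccaggaagc
Mcm7: tctcccatgctGCACTTTtttattctgcca

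Mcm2, Mcm4, Mcm5 and Mcm6 had no such match and had E of 1.86, 2.06, 1.51 and 1.79 in ES cells, beside 2.06 for Mcm3 and 1.96 for Mcm7.

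Other genes of the same processes were taken as lists for comparison, with no member in common. Of 37 further replication genes tested, E fell to ELA by at least 1 in 9 (24.3%, against 6.95% of all genes tested) and rose by at least 1 in 3 (Gins3, Pole3 and Pole4, or 8.11%, near the 8.52% of all genes), with a median change of −0.19. The largest fall was that of the topoisomerase Top2b, from 1.45 to −0.19, where its total RNA was higher in ELA by 1.15, unlike in any member. It was followed by Recql4, a helicase of origin firing, from 1.35 to −0.10. The largest rises were those of Pole3, a small subunit of polymerase epsilon, from −1.35 to 0.05, and of the GINS subunit Gins3, from −1.34 to −0.20.

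Of 57 further repair genes, 18 (31.6%, against the same 6.95%) fell by at least 1 and none rose by 1, with a median of −0.53. Parp1, the sensor of strand breaks, went from 1.90 to 0.17. Ercc1, a nuclease subunit of excision repair, went from −1.37 to −0.74. Of 15 mitosis genes, 5 (33.3%) fell by at least 1. The proliferation marker Mki67 went from 2.08 to 0.29 and the spindle factor Tpx2 from 1.47 to 0.00, while the centromere histone Cenpa went from −0.81 to −0.01 and the cyclin Ccna2 from −0.25 to 0.31. In total RNA from NPC to NPC/Neu, 34 of the 37 replication genes, 48 of the 57 repair genes and all 15 mitosis genes were lower, against 55.0% of all genes tested, with medians of −0.66, −0.49 and −0.75. The total RNA loss at the last step was therefore shared by genes of the dividing cell outside the list.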

How the data were processed

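Per the file headers, the authors deposited spot intensity values from Feature Extraction 10.7.3.1 (the submitters' processing notes name version 9.1 and limma), with no normalization between arrays. For 8 Agilent arrays, the normexp model of limma 3.58.1 (R 4.3.3, offset 50) was applied to spot and background intensity and irregular spots were removed. Quantile normalization of the log2 values over all arrays followed, as in the study's methods, then averaging of repeated probes. Quantile normalization gives all arrays 1 distribution, so that overall differences in RNA recovery are not kept. A gene's value is the mean of its probes. For the binding threshold, mclust 6.1.1 fitted 2 components to the Ago–RNA signal, and 3 SD were added to the mean of the dimmer. Later steps used Python 3.11.15 with numpy 2.4.6 and pandas 2.3.3. Probes and coding lengths were placed on GENCODE transcripts of mm9. The calculations were also run on simulated data.

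Members, gene lists and limits were chosen with earlier results of these data known. Every member was to be named, and in each other list the 2 genes with the lowest and the 2 with the highest change of E from ES cells to ELA. Some genes that this rule names are not reported here. Map2, a marker, and Rpa4, a replication gene, were not found by name on the arrays. Coordinates of probes are of mm9 and those of promoters of GRCm38.p6. Ribosome and protein data were not analysed here. With 1 array per group, no test was run, and precision is limited by the number of arrays.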

Additional observations from a re-analysis of the deposited data

How the results depend on the processing

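Offset 16, other ways of averaging a gene's probes and the filter on dim probes left the medians over the members within the spot SD, and 44 of 45 members were lower in total RNA from NPC to NPC/Neu in all 8 settings. An offset of 16 gave 1 member with E higher by at least 1 from ES cells to ELA in place of 0. The processed signal with quantile normalization also gave 1 such member, 2 members with E of at least 1 in NPC, 1 with total RNA higher by at least 1 from ELA to NPC, and from NPC to NPC/Neu 12 with E higher and 7 with total RNA lower by at least 1. Scaling to the 75th percentile gave a median E of 0.42 in ES cells, median changes of −0.35 for E from ES cells to ELA and −0.37 for total RNA from ELA to NPC, 12 members with E of at least 1 in ES cells, 8 with E lower and 1 with E higher by at least 1 from ES cells to ELA, 3 with total RNA lower from ELA to NPC, 4 with E higher and 11 with total RNA lower from NPC to NPC/Neu, and 0 released. It moved the median of all genes to −0.25 for E in ES cells, −0.18 for total RNA from ELA to NPC and −0.11 from NPC to NPC/Neu. Normalizing Ago–RNA and total RNA arrays separately gave median E of 1.08, 0.36, 0.56 and 1.05 at the 4 stages, against 0.22, 0.19, 0.22 and 0.25 over all genes, with 3 members of E of at least 1 in ELA and 10 in NPC, and turned the sign of E in ES cells for Prim1, Gins1 and Rpa2 and in NPC/Neu for Rfc5. The cause of these differences was not tested. The Spearman correlation of coding length with E in ES cells lay between 0.741 and 0.843 over all settings. No paired analysis was possible because each group holds 1 array.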
